A study of Mus musculus with 8 samples.

Results

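Calcium that enters a neuron is taken up by buffer proteins and read out by sensor proteins, and 10 genes for such proteins were followed in the mouse striatum. They comprise the buffers Calb1 (calbindin), Calb2 (calretinin) and Pvalb (parvalbumin), the sensors Hpca (hippocalcin), Hpcal1, Hpcal4, Ncald (neurocalcin delta) and Vsnl1 (visinin-like protein), and the calmodulin-binding proteins Nrgn (neurogranin) and Pcp4 (PEP-19). The members were all probe sets, the groups of short array probes that read 1 transcript, which the platform annotation gives to these 10 genes. That made 17 probe sets of 45037 tested, and none of the 17 was shared with another gene. 6 genes had 1 probe set each, and the other 4 had several: Calb1 had 4, Ncald 3, and Hpca and Vsnl1 2 each.

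Striatal total RNA of each of 8 mice, 4 R6/2 and 4 wild-type, was hybridised to its own array. All 8 animals were labelled as female, aged 85 days (12 weeks), on a mixed C57Bl/6 and CBA background. R6/2 is a transgenic model of Huntington's disease: a fragment of human huntingtin that spans its first exon, with a long CAG repeat, is inherited by every cell on top of the normal mouse gene. Mice 42, 48, 54 and 63 were wild-type, and 64, 65, 70 and 78 were R6/2. The design text counts 5 wild-type mice, 1 of which was not analysed here.

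As background, EF-hand proteins bind calcium in paired loops. Buffers such as calbindin, calretinin and parvalbumin limit the size and spread of calcium signals, and in the striatum they also mark cells: calbindin the medium spiny neurons of the matrix, parvalbumin and calretinin separate classes of GABAergic interneurons. Hippocalcin and its relatives belong to the neuronal calcium sensors, which expose a fatty acyl anchor and move to membranes when they bind calcium. Neurogranin and PEP-19 have no EF hands. They hold calmodulin through an IQ motif and alter how it exchanges calcium.

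In R6/2 striatum, Pcp4, Nrgn, Hpca and Hpcal4 had lower transcript levels than in wild-type striatum, between 1.38-fold and 1.69-fold. Values are log2 intensities, a fold is 2 raised to the size of the log2 difference, and a probe set was called at a limma p under 0.05 after adjustment over all 45037 probe sets. Of the 17 probe sets, 4 were called lower, 0 were called higher and 13 did not pass. Over all probe sets, 4.59% were called lower and 5.54% higher. These shares are not matched for level, and the 4 called were all among the 7 members with a mean of 10 or more. Without the dimmest 40% of probe sets, 2240 of 27022 were called lower, and 5 of the 17 members. The median difference of the 17 was -0.27, against -0.017 over all probe sets. Of the 17, 16 were below 0, a count that takes in all 4 Calb1 and all 3 Ncald probe sets. The share below 0 over all probe sets was not counted. The buffers Calb1, Calb2 and Pvalb did not pass, nor did Hpcal1, Ncald and Vsnl1.

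RefSeq promoter windows (GRCm38.p6) were matched for 7 of the 10 genes by gene ID, 11 windows in all, each 250 bases upstream of a listed transcription start. Calb1, Calb2 and Ncald were not matched. The windows of the 4 genes that were lower in R6/2 mice are shown because each of these genes was called lower. Capitals mark matches, on either strand, to the EGR motif GCGNGGGCG, the GC box GGGCGG, the cyclic AMP response element core TGACG or the TATA box TATAAA. A GC box can overlap an EGR match, and the 2 then run into each other.
Hpca: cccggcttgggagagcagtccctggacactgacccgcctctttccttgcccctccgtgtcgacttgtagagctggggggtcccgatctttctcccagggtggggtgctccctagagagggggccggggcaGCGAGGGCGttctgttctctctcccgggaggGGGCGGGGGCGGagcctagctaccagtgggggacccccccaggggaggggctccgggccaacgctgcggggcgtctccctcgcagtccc
Hpcal4: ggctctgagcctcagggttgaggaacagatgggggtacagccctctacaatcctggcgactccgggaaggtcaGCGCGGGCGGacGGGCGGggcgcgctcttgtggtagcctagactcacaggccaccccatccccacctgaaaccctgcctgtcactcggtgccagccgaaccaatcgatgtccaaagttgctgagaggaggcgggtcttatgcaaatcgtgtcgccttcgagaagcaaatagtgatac
Nrgn: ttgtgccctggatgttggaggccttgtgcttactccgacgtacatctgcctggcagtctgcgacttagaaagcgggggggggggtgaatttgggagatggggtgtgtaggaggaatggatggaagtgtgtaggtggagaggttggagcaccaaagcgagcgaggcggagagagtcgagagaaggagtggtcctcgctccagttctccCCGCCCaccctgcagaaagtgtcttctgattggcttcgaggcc
Pcp4: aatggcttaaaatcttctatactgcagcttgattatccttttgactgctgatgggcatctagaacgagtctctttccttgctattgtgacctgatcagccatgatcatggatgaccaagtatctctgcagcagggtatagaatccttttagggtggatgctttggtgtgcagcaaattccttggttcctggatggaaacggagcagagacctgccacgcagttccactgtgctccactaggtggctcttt

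These windows lie at chr4:129121304-129121553 (minus strand) for Hpca, chr4:123183254-123183503 (plus strand) for Hpcal4, chr9:37552746-37552995 (minus strand) for Nrgn and chr16:96467356-96467605 (plus strand) for Pcp4. Hpca has 3 listed starts, and the one shown is the only one of the 3 with an EGR match. EGR matches were found in 3 of the 11 windows, 1 each of Hpca, Hpcal1 and Hpcal4, and in 4.7% of all 32851 mouse windows of this length. Those 3 windows had a GC content of 71.2%, 66.8% and 60.4%, and Hpcal1 was not called lower. The shares over all windows are not matched for GC content. GC boxes were in 6 of the 11, against 32.7% of all windows. None of the 11 held TGACG (17.8% of all windows), the full element TGACGTCA (1.55%) or TATAAA (12.4%). The Pcp4 window held none of these motifs and had a GC content of 46.8%, against 71.2% for the Hpca window shown and a median of 52.4% over all windows. The Hpca windows not shown had 58.8% (with a GC box) and 51.2% (with none of these motifs), so this contrast depends on the window. A match is a run of letters and not a measured binding site, and the arrays do not show which start was used.

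On every array the probe sets were on a common scale, with medians between 5.08 and 5.13 and correlations between arrays from 0.983 to 0.994. The tissue label was checked against medium spiny neuron markers: Ppp1r1b (DARPP-32) averaged 12.17 and Penk (enkephalin precursor) 12.51 in wild-type mice, and 13 of 14 measured markers were lower in R6/2 mice. In bulk tissue, fewer cells of a type and less RNA per cell cannot be told apart. Neighbouring tissue was followed by marker scores, the mean over a list of each value minus its wild-type mean. By the same score, the medium spiny neuron markers ran from -0.24 (mouse 63) to 0.092 in wild-type mice. In R6/2 mice they ran from -1.05 to -0.94, and the median difference of these markers was -0.96. The part of this general fall in the member differences was not tested. Cortical projection neuron genes (16 of 17 measured) scored from -0.57 to 0.27 in wild-type mice and from -1.03 to -0.11 in R6/2 mice, with Slc17a7 between 5.08 and 8.66. Of these 16 genes, 2 were called lower. Thalamic genes (8 of 8 measured) scored 0.84 in wild-type mouse 63 and between -0.50 and -0.19 in the other 7 mice. 1 thalamic gene was called lower. Wild-type mouse 63 stood apart from all other mice in several thalamic genes, with Slc17a6 at 7.42 against at most 5.18 elsewhere. Its Rora and Lef1 were the highest only by narrow margins. Synpo2, the thalamic gene called lower, read 6.89 in mouse 63 and 7.31 in wild-type mouse 42. Striatal interneuron genes (14 of 15 measured) scored from -0.27 to 0.15 in wild-type mice, against -0.64 to -0.23 in R6/2 mice, and 3 were called lower. The median difference of this list was -0.26, and the largest falls, of Cck (-1.60) and Vip (-1.29), were not called. Both genes were lowest among wild-type mice in mouse 54 and highest among R6/2 mice in mouse 64, as was the cortical score. The interneuron score is therefore not a measure of striatal interneurons alone. Hippocampal genes (8 of 8 measured) scored from -0.13 to 0.11 in wild-type mice and from -0.097 to -0.0081 in R6/2 mice, and 1 was called lower. Ependymal and choroid plexus genes (10 of 11 measured) scored from -0.45 to 0.64 and from -0.52 to 1.02 in the same order, with 1 called lower and 1 higher. Prox1, Neurod1, Dsp, C1ql2, Spink8 and Lct of the hippocampal list averaged below 5.37 in both groups. That is the highest value of any Y-linked probe set in these female mice, so the hippocampal score cannot be read as unchanged. The cortical, thalamic, interneuron and ependymal lists also held such genes, since no level limit was applied to the scores. The part of these tissue differences in the results was not tested. Values with the cortical score as a covariate, or without a mouse, are given as descriptions. The cortical score was itself lower in R6/2 mice (mean -0.64, against 0 in wild-type mice). A fit with this covariate can therefore remove genotype difference along with tissue difference, and it cannot tell them apart.

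**Figure D1:**
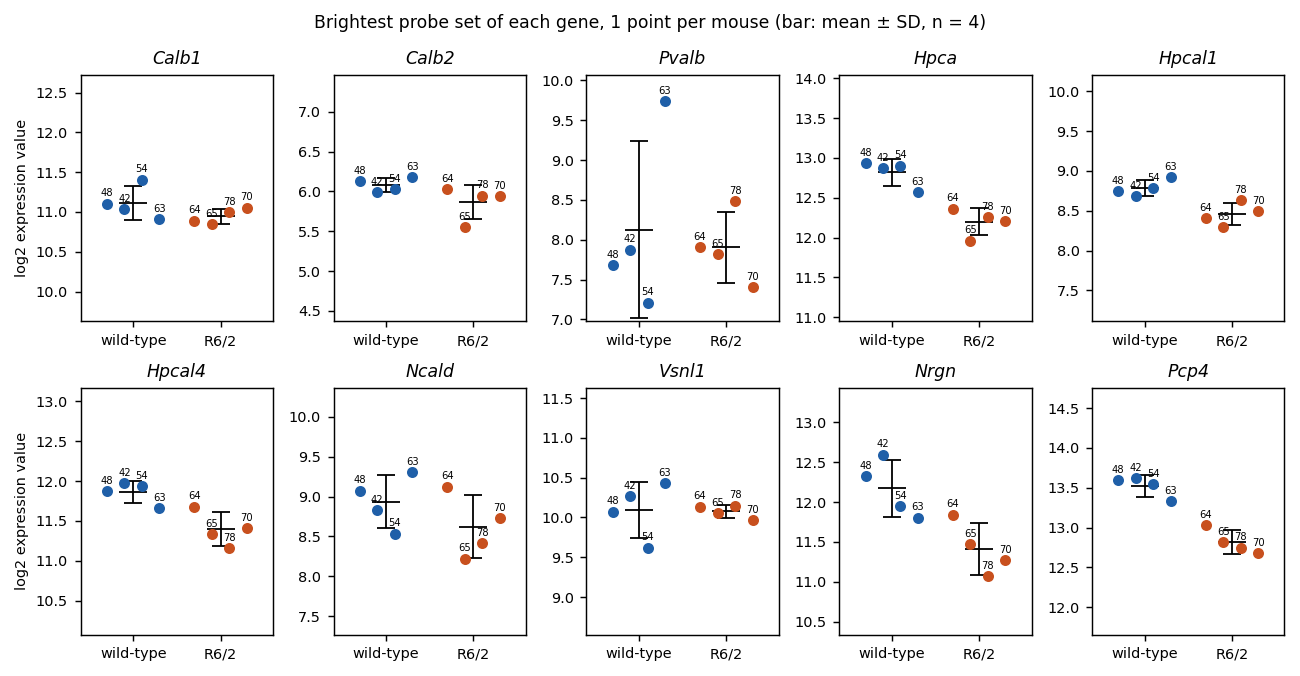
Log2 expression value of the brightest probe set of each of the 10 genes, with 1 point per mouse (blue wild-type, orange R6/2, labelled by mouse number) and the mean ± SD of each group; all panels span the same log2 range. Pcp4, Hpca and Hpcal1 have groups that do not overlap, and Pvalb has 1 wild-type mouse, number 63, at 9.74.

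Pcp4, which accelerates calcium exchange on calmodulin, had the smallest adjusted p of the 17 probe sets. Its log2 values were 13.63, 13.59, 13.55 and 13.33 in wild-type mice 42, 48, 54 and 63. They were 13.04, 12.81, 12.68 and 12.75 in R6/2 mice 64, 65, 70 and 78. The groups did not overlap: the lowest wild-type value lay above the highest R6/2 value. The means were 13.52 ± 0.13 and 12.82 ± 0.15 (SD, n = 4 each), a difference of -0.70 ± 0.099 (log2, SE), or 1.63-fold lower (adjusted p = 0.00269). The call held without any single mouse (adjusted p from 0.00210 to 0.0124). It also held with the cortical score added as a covariate (-0.64 ± 0.14, adjusted p = 0.0425), the only member call to do so.

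Nrgn, which binds calcium-free calmodulin in dendritic spines, had the largest mean difference of the called genes and a wide spread between mice. Wild-type mice 42, 48, 54 and 63 had 12.60, 12.33, 11.95 and 11.81, and R6/2 mice 64, 65, 70 and 78 had 11.84, 11.47, 11.27 and 11.07. The groups overlapped by a small margin, since R6/2 mouse 64 lay above wild-type mouse 63. The means were 12.17 ± 0.36 and 11.41 ± 0.33 (SD, n = 4 each), 1.69-fold lower in R6/2 mice (-0.76 ± 0.20, adjusted p = 0.0368). Nrgn is also strongly expressed in the cortex, and the part of cortical tissue in its difference was not tested. Wild-type mouse 63, the lowest of its group in Nrgn, had a cortical score of 0.22, against -0.57 in wild-type mouse 54. With the cortical covariate the difference was -0.47 ± 0.24 (adjusted p = 0.353). Leaving out single mice gave differences from -0.90 to -0.62, and the call was lost without any of 5 mice, up to an adjusted p of 0.0993 (leaving out R6/2 mouse 70). The changes of Nrgn and Pcp4 differed by -0.055 (log2, Nrgn minus Pcp4), with SDs of 0.26 and 0.20 for that per-mouse difference (n = 4 each).

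Of the sensors, hippocalcin had the smallest adjusted p. The brighter Hpca probe set, 1450930_at, read 12.87, 12.93, 12.90 and 12.57 in wild-type mice 42, 48, 54 and 63 and 12.36, 11.96, 12.20 and 12.26 in R6/2 mice 64, 65, 70 and 78. The groups did not overlap, and wild-type mouse 63 lay apart from the other 3 wild-type mice, on the R6/2 side. Group means were 12.82 ± 0.17 and 12.20 ± 0.17 (SD, n = 4 each), a 1.54-fold lower level in R6/2 mice (-0.62 ± 0.11, adjusted p = 0.00727). The call held without any single mouse (adjusted p from 0.00403 to 0.0273) and was lost with the cortical covariate, where the difference was -0.57 ± 0.15 (adjusted p = 0.0822). The other Hpca probe set, 1425833_a_at, had a difference of -0.67 with a larger standard error, 0.29, and did not pass (adjusted p = 0.180). Its wild-type values were 9.94, 11.03, 10.86 and 10.94 and its R6/2 values 10.53, 9.44, 9.70 and 10.41 in the same order of mice. Wild-type mouse 42 was low in this probe set but not in the brighter one, and without it the difference was -0.92 (adjusted p = 0.0462).

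Hpcal4, a close relative of hippocalcin, read 11.98, 11.87, 11.94 and 11.66 in wild-type mice 42, 48, 54 and 63. R6/2 mice 64, 65, 70 and 78 read 11.68, 11.33, 11.41 and 11.16. R6/2 mouse 64 lay just above wild-type mouse 63, and the other 3 R6/2 mice lay below all wild-type mice. The difference was -0.47 ± 0.12, or 1.38-fold lower (adjusted p = 0.0308). Leaving out single mice gave differences from -0.56 to -0.39. The call was lost without any of 6 mice, up to an adjusted p of 0.0778 (leaving out R6/2 mouse 78), and with the cortical covariate (-0.35 ± 0.15, adjusted p = 0.270).

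Hpcal1, another hippocalcin relative, lay at the threshold. Wild-type values ran from 8.68 to 8.92 and R6/2 values from 8.30 to 8.64, so the groups did not overlap. The difference was -0.32 ± 0.091 (95% interval -0.52 to -0.12), with an adjusted p of 0.050001. Its adjusted p was 0.0360 when each gene was represented by 1 probe set, 0.0485 without wild-type mouse 42 and 0.0395 without R6/2 mouse 78. It did not pass in the other 6 fits without 1 mouse (up to 0.121), without moderation of the variances (0.109) or with the cortical covariate (-0.32 ± 0.13, adjusted p = 0.218). Without overlap between groups were 3 of the 17 probe sets, those of Pcp4, Hpca and Hpcal1, all lower in R6/2 mice, against 7.07% of all probe sets that were lower and 16.1% in either direction.

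Ncald, a sensor expressed in many brain regions, did not pass in any of its 3 probe sets. Its brightest probe set, 1417569_at, read 8.83, 9.08, 8.53 and 9.31 in wild-type mice 42, 48, 54 and 63 and 9.13, 8.22, 8.73 and 8.41 in R6/2 mice 64, 65, 70 and 78. R6/2 mouse 64 was higher than 3 of the wild-type mice, and wild-type mouse 54 was lower than R6/2 mice 64 and 70. The difference was -0.31 ± 0.21 (adjusted p = 0.393), and it became 0.20 ± 0.16 once the cortical score was a covariate (adjusted p = 0.568). The lowest wild-type mouse and the highest R6/2 mouse in Ncald were also the lowest and the highest of their groups in the cortical score, at -0.57 and -0.11. Probe set 1417568_at turned in the same way, from -0.53 ± 0.25 (adjusted p = 0.219) to 0.15 ± 0.13 (adjusted p = 0.624). 1444466_at (adjusted p = 0.255) averaged 5.29 and 5.02, below the highest value of any Y-linked probe set in these female mice (5.37), so no fold is given.

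Vsnl1, a sensor found in most forebrain neurons, had probe sets whose differences had opposite signs. The brighter, 1420955_at, read 10.27, 10.07, 9.62 and 10.43 in wild-type mice 42, 48, 54 and 63, and between 9.96 and 10.15 in the R6/2 mice, which lay within the wild-type range. Its difference was -0.022 ± 0.15 (adjusted p = 0.949, 95% interval -0.36 to 0.31). The dimmer, 1450055_at, ranged from 7.89 to 9.24 in wild-type mice, against 8.69 to 9.05 in R6/2 mice, with a difference of 0.40 ± 0.25 (adjusted p = 0.363). Both had a wider spread in wild-type mice (SD 0.35 and 0.60) than in R6/2 mice (0.085 and 0.17). The 2 differences lay -0.42 apart (brighter minus dimmer). Without wild-type mouse 42 that gap was -0.15 and the difference of the dimmer probe set 0.18, and without each of the other mice in turn the gap ran from -0.54 to -0.39.

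**Figure D2:**
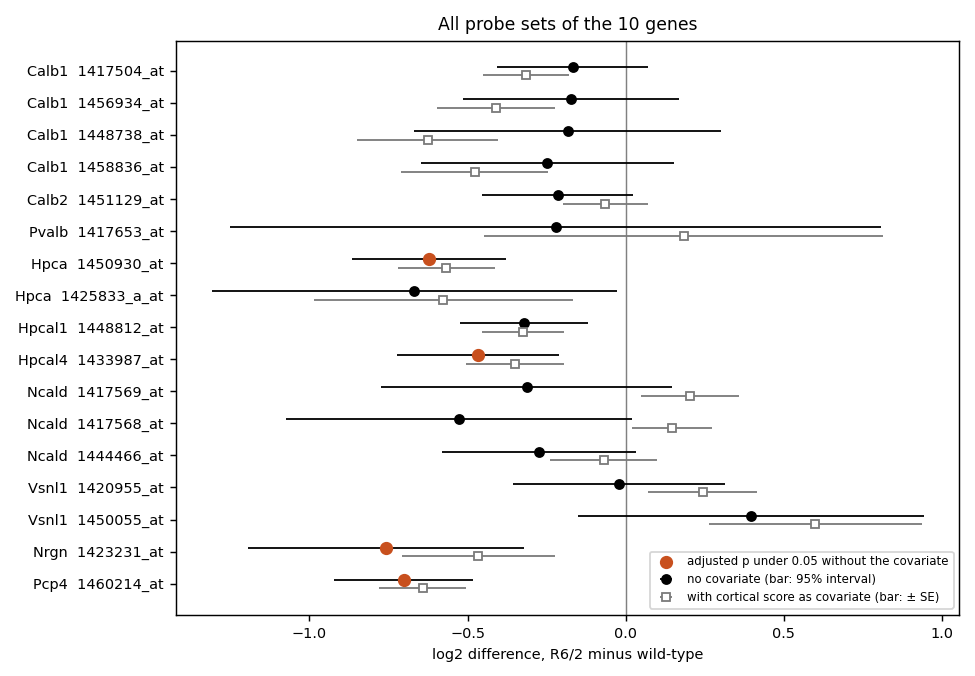
Log2 difference, R6/2 minus wild-type, of all 17 probe sets with its 95% interval (circles, orange where called), and after adding the cortical covariate (open squares, ± SE). The 4 called probe sets lie between -0.76 and -0.47, and the brighter 2 Ncald probe sets move from below 0 to above 0 with the covariate.

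Calb1, the calbindin buffer of matrix medium spiny neurons, did not pass in any of its 4 probe sets. The brightest, 1417504_at, read 11.04, 11.11, 11.41 and 10.91 in wild-type mice 42, 48, 54 and 63 and 10.89, 10.85, 11.05 and 11.00 in R6/2 mice 64, 65, 70 and 78. Only wild-type mice 48 and 54 lay above all R6/2 mice, mouse 48 by a narrow margin. The difference was -0.17 ± 0.11 (adjusted p = 0.374), with a 95% interval from -0.41 to 0.070. Probe sets 1456934_at and 1448738_at gave -0.17 ± 0.15 and -0.18 ± 0.22, with adjusted p of 0.540 and 0.661. The dimmest, 1458836_at (adjusted p = 0.442), averaged 5.24 and 4.99, below the highest Y-linked value, so no fold is given. In the brighter 3 probe sets wild-type mouse 54 was the highest of the 8 mice, and the SD was larger in wild-type mice (0.21 to 0.53) than in R6/2 mice (0.017 to 0.12). With the cortical covariate the differences of these 3 were -0.32, -0.41 and -0.63, and none passed (smallest adjusted p = 0.170).

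Calb2, which marks calretinin interneurons, read 5.99, 6.13, 6.03 and 6.18 in wild-type mice 42, 48, 54 and 63 and 6.03, 5.55, 5.94 and 5.95 in R6/2 mice 64, 65, 70 and 78. R6/2 mouse 65 was the lowest, and mouse 64 lay within the wild-type range. The difference was -0.22 ± 0.11 (adjusted p = 0.249, 95% interval -0.45 to 0.023). It was -0.11 without R6/2 mouse 65 (adjusted p = 0.465) and -0.065 with the cortical covariate (adjusted p = 0.873).

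Pvalb, the marker of fast-spiking interneurons, differed between mice more than between genotypes. It read 7.87, 7.69 and 7.21 in wild-type mice 42, 48 and 54 but 9.74 in wild-type mouse 63, and 7.91, 7.82, 7.41 and 8.49 in R6/2 mice 64, 65, 70 and 78. Mouse 63 was also the mouse with the highest thalamic score (0.84), and its Kcnc2, a potassium channel gene of fast-spiking neurons, was the highest too, at 8.01 against at most 7.25 elsewhere. The difference between genotypes was -0.22 ± 0.46 (adjusted p = 0.817), with a 95% interval from -1.25 to 0.81. Without wild-type mouse 63 its sign turned, to 0.31 (adjusted p = 0.479).

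**Figure D3:**
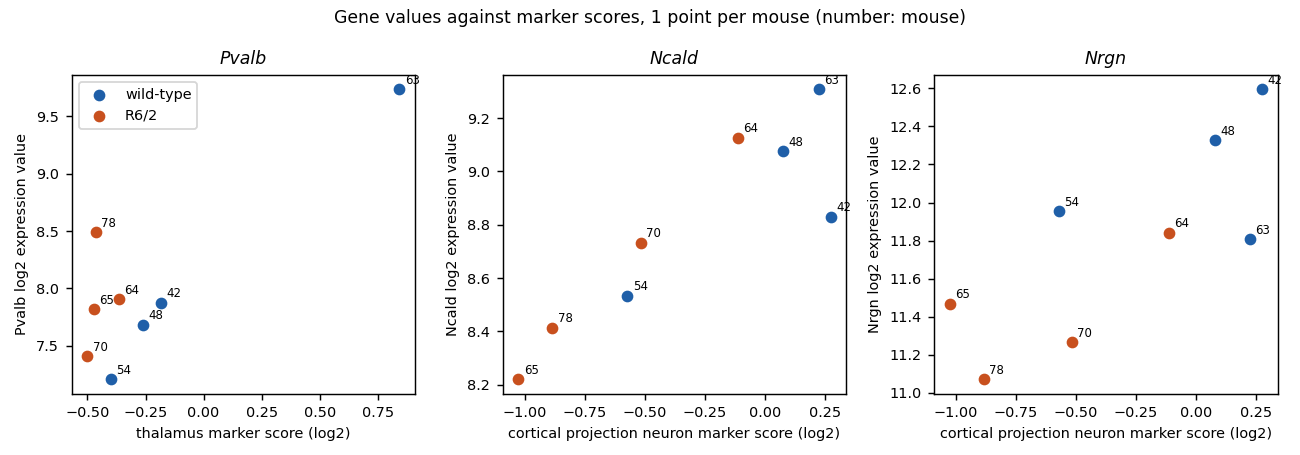
Log2 expression value of Pvalb against the thalamic marker score, and of Ncald and Nrgn against the cortical projection neuron score, with 1 point per mouse (blue wild-type, orange R6/2, labelled by mouse number). Wild-type mouse 63 stands alone in the Pvalb panel, at a thalamic score of 0.84, while the Ncald values of both genotypes are spread along the cortical score.

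For 8 pairs of related genes, the per-mouse difference of the brightest probe sets was compared between genotypes. The exact 2-sided permutation over 70 arrangements has a smallest p of 0.0286, so a single pair of 8 could reach an adjusted p of 0.229 at best. The same test on 7 pairs of probe sets of 1 gene could reach 0.200 at best. Neither test says anything about equal or unequal change, and the gaps are given as a description. Hpca minus Vsnl1 was the widest gap, at -0.60, with SDs of 0.48 in wild-type and 0.16 in R6/2 mice (n = 4 each). Hpca minus Hpcal1 was -0.30 (SDs 0.26 and 0.15), Hpca minus Ncald -0.31 (SDs 0.46 and 0.27) and Hpca minus Hpcal4 -0.16 (SDs 0.073 and 0.21).

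A list of 50 other calcium- and calmodulin-binding genes, of which 44 were measured here, was read by the brightest probe set of each gene. Of these, 11 were called lower, 1 higher and 32 did not pass, against 5.13% of all 18193 genes called lower and 7.29% higher. These shares are not matched for level, and the dimmest of the 11, Cabp1, lay at percentile 65.3 of all probe sets. Among those that did not pass, 6 did not lie above the highest Y-linked value in either group, so they cannot be read as unchanged. The median difference of the 44 genes was -0.10, against -0.0034 over all genes. The largest falls were those of Tesc (tescalcin, an EF-hand regulator of sodium-proton exchange), at -1.09 ± 0.11 (adjusted p = 0.000568), and Kcnip2, at -0.97 ± 0.10 (adjusted p = 0.000709). The other Tesc probe set fell by 1.18 on the log2 scale (adjusted p = 0.000377), while the other Kcnip2 probe sets did not pass (-0.53, adjusted p = 0.364, and -0.029, adjusted p = 0.869). Tesc and Kcnip2 were also the only genes of this list called lower with the cortical covariate.

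Among 8 measured neuronal calcium sensor and Kcnip genes outside the visinin-like group, Kcnip2 and Kcnip3 (-0.52 ± 0.12) fell and 6 did not pass, including Ncs1 (-0.29 ± 0.11, adjusted p = 0.146). Rcvrn and Guca1a, also among these 6, did not lie above the highest Y-linked value in either group. Another Kcnip3 probe set differed by -0.061 (adjusted p = 0.825). Of 6 calmodulin-like Cabp and Caln1 genes, Cabp7 (-0.85 ± 0.16), Cabp1 (-0.67 ± 0.14) and Caln1 (-0.39 ± 0.11) fell. The remaining Cabp2, Cabp4 and Cabp5 did not pass, and none of them lay above the highest Y-linked value in either group. Other probe sets of Caln1 did not pass (-0.43, adjusted p = 0.0718, and -0.27, adjusted p = 0.131), nor did another of Cabp7 (adjusted p = 0.989), which averaged 3.37, below the highest Y-linked value. Necab2, an EF-hand partner of striatal receptors, fell by 0.53 (adjusted p = 0.0135), and Pcp4l1, the closest relative of Pcp4, by 0.55 ± 0.12 (adjusted p = 0.0154). Efhd1, a mitochondrial EF-hand protein, fell by 0.52 (adjusted p = 0.0172). None of the 7 S100 genes passed, with differences from -0.36 to 0.27 by limma, and 2 of them, S100a6 and S100a10, had an unadjusted p under 0.05. S100a4 did not lie above the highest Y-linked value in either group.

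Of 9 genes for calcium-binding proteins of the endoplasmic reticulum and Golgi, 2 fell, 1 rose and 6 did not pass. Nucb1 (nucleobindin 1) rose by 0.42 ± 0.083 (adjusted p = 0.0129), from 8.01 ± 0.14 to 8.43 ± 0.040 (SD, n = 4 each), while its paralogue Nucb2 fell by 0.45 (adjusted p = 0.0389). The brightest Sdf4 probe set fell by 0.37 (adjusted p = 0.0120), but another Sdf4 probe set rose by 0.27 (adjusted p = 0.0484), so the direction of this gene is not settled. Calr, the main calcium buffer of the endoplasmic reticulum, differed by 0.019 ± 0.073 (adjusted p = 0.908).

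**Figure D4:**
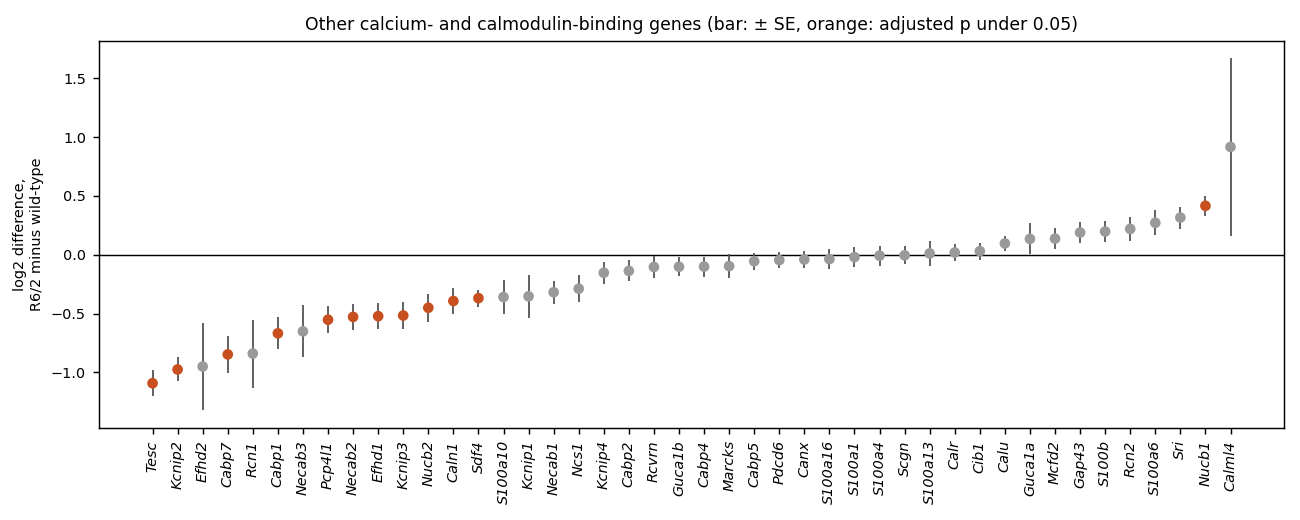
Log2 difference, R6/2 minus wild-type, with its SE for the 44 other calcium- and calmodulin-binding genes, ordered by size; orange points passed an adjusted p of 0.05. The falls reach -1.09 for Tesc, and Nucb1, at 0.42, is the 1 gene called higher; Calml4 has the widest error.

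For each member, the 3 genes whose profile over the 8 mice lay nearest were listed by the mean absolute difference between profiles (value minus wild-type mean). For Hpca these were Adgrb2, Mast3 and Prmt8, at 0.036 to 0.045. For Pcp4 they were Dagla, Atp2b2 and Smpd3, at 0.057 to 0.060, of which Atp2b2 encodes a plasma membrane calcium pump. The nearest to Pvalb was Kcnc2, at 0.22, followed by Gm13629 and Tcf7l2, a thalamic transcription factor gene, at 0.30 and 0.32. Nrgn lay nearest to Fam189a1, Bank1 and Fancb, at 0.11 to 0.13, and Ncald to Medag, Crtac1 and Celsr1, at 0.12 to 0.13. Calb1 lay nearest to St6galnac5, Nodal and Ccdc7a, at 0.038 to 0.045, and Calb2 to Susd4, Tst and Vegfb, at 0.031 to 0.043. The nearest to Hpcal1 were Sdc3, Ctnnd2 and Olfr870, at 0.045 to 0.048, and the nearest to Hpcal4 were Gm11627, 2900079G21Rik and Cntn5, at 0.045 to 0.054. For Vsnl1 they were Elavl2, Cavin2 and Tnxb, at 0.077 to 0.082. Of the genes listed, Nodal, Ccdc7a, Tcf7l2, Olfr870, Medag, Celsr1, Tnxb and Bank1 averaged 3.26 to 4.93 over the 8 mice. These means lay below the highest Y-linked value, a limit not applied in this listing, so these matches may be background noise. Tcf7l2, however, read 6.06 in wild-type mouse 63, above that value, and 4.51 to 4.96 in the other mice, so its match to Pvalb rests on mouse 63. The members' own profiles had mean absolute values of 0.16 (Vsnl1), 0.33 (Ncald), 0.60 (Pvalb) and 0.37 (Hpca). A nearest gene is therefore not always a close match.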

How the data were processed

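The deposited table holds log2 expression values per probe set, which the authors computed, per the submitters' processing notes, by RMA in the affy package; versions, the arrays normalized together and a genome build are not given in the sources used here. RMA corrects background, normalizes across arrays and combines the probes of each set, and it compresses differences of dim probe sets. Values ran from 2.57 to 14.49, and no columns were identical. Of 45101 rows, 64 controls were left out.

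Symbols came from the platform annotation and were updated by Entrez ID through RefSeq (34741 of 34945 probe sets with 1 symbol matched), and 18193 genes were named. All probe sets were fitted together with limma 3.58.1 in R 4.3.3 (8 arrays, 1 model, no covariate), with Benjamini-Hochberg adjustment over 45037. The labels number each mouse, so p-values measure the spread between animals. Pairs were compared by exact permutation. A level at or below the highest of 13 Y-linked probe sets (5.37; all but the highest 2 stayed at or below 3.71) was not given a fold. Named were all members, the called genes of the wider list (at most 8 in each direction by adjusted p, and Nucb2, Kcnip3, Caln1 and some genes that did not pass, chosen after their values were seen) and the 3 nearest profiles of each member. The members, lists and tests were chosen with earlier results of these data known. On simulated data of 45037 probe sets with the real means and spreads, wild-type against R6/2, 46.4% of log2 changes of 0.5, 89.8% of those of 1 and 99% of those of 2 were called in the right direction. Each of 3 simulations changed 200 probe sets, fewer than were called in the real data, and drew noise independently for each probe set. Tissue differences shared by many genes were not simulated, so these shares are not the power of the real comparison. The alternatives were quantile normalization, median centring, leaving out the dimmest 40%, an intensity trend with robust moderation, no moderation, array weights, 1 probe set or the mean per gene, the cortical score as a covariate and leaving out each mouse. Figures come from matplotlib 3.10.9 in Python 3.11.15.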

Additional observations from a re-analysis of the deposited data

Results flagged for a closer look

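In 2 of 34 groups of 4 mice (17 probe sets, both genotypes), 1 mouse lay farther from the rest of its group than Dixon's 95% limit allows; chance flags about 1 in 20 groups. Both were Hpca probe sets in wild-type mice, but not the same mouse. In 1450930_at, wild-type mouse 63 read 12.57, against 12.87 to 12.93 in the other 3 wild-type mice. In 1425833_a_at, wild-type mouse 42 read 9.94, against 10.86 to 11.03 in the other 3.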

How the results depend on the processing

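The 4 member probe sets called lower became 2 without moderation and 1 with the cortical covariate, and the count by brightest probe set likewise became 2 and 1. Without 1 mouse both counts ran from 2 to 4, with 2 without wild-type mouse 48 or R6/2 mouse 65 or 70; none was called higher in any setting (0 to 0). Over all probe sets, 873 were called lower and 988 higher without moderation, 732 and 759 with the covariate, and 1358 to 2084 lower and 1287 to 2372 higher without 1 mouse, against 2069 and 2497. In the wider list, 3 were called lower without moderation, 2 with the covariate and 7 to 13 without 1 mouse (7 without R6/2 mouse 70), and 2 higher without the dimmest 40%, with array weights, with 1 probe set per gene and with the covariate (1 to 2 without 1 mouse). The covariate leaves 5 residual degrees of freedom in place of 6 and raises the median standard error from 0.096 to 0.13. Of 275 alternative values of member differences, 237 kept direction and side of the threshold, 17 lost the call, 10 gained it and 11 turned in sign, none of these 11 called in either setting. Those were Ncald (0.15 and 0.20) and Pvalb (0.18) with the covariate, Pvalb without wild-type mouse 63 (0.31), Calb1 1448738_at without wild-type mouse 54 (0.016), and Vsnl1 1420955_at with the covariate (0.24), the mean of its probe sets (0.19), array weights (0.041) or without wild-type mouse 42 (0.035), wild-type mouse 63 (0.089) or R6/2 mouse 70 (0.016). Nrgn also lost its call with the trend (adjusted p = 0.0575) and, like Hpcal4 (adjusted p = 0.110), without moderation (adjusted p = 0.147). Hpcal1 passed in 8 of 17 alternatives, with adjusted p from 0.0293 to 0.218 over all of them. Without 1 mouse, Pvalb ran from -0.53 to 0.31, Vsnl1 1420955_at from -0.18 to 0.089 and Calb1 1448738_at from -0.41 to 0.016. The cause was not tested. The exact tests of pairs cannot pass for a single pair, and with 7 mice their smallest p is 0.0571, so they say nothing about stability. No paired analysis was possible because the groups share no mouse numbers. The number of arrays limits the precision.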
